A study of Mus musculus with 6 samples.

Results

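The genes described here are the pore-forming and auxiliary subunits of voltage-gated sodium and calcium channels, measured by RNA sequencing in olfactory bulbs of mice with a plugged naris. They were taken from the genes of the count table whose mouse symbol is Scn, a number and a or b, or starts with Cacn, and 38 of the 22095 genes are described, 12 of sodium channels and 26 of calcium channels. The olfactory bulb is the first relay of smell in the brain, where axons from the nasal epithelium end. In 3 ICR mice, numbered 1037, 1038 and 1039, the left naris was closed with a silica gel plug at postnatal day 30, and the bulbs were collected 60 days after that, following perfusion with saline. The left bulb is therefore the plugged one and the right bulb of the same animal the open one. Every mouse carried a plug, so a difference between the sides that exists without a plug cannot be told apart from one that follows it. The comparison rests on 5 libraries, the left bulbs of mice 1037 and 1039 and the right bulbs of mice 1037, 1038 and 1039.

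Voltage-gated sodium channels open on depolarisation and carry the upstroke of the action potential. Their alpha subunit forms the pore, and small beta subunits with a single membrane span set its gating and placement. Voltage-gated calcium channels turn the electrical signal into calcium entry, which drives transmitter release, dendritic spikes and calcium-dependent transcription. Their alpha1 subunit forms the pore, and alpha2delta and beta subunits bring it to the membrane. Most gamma subunits act as auxiliary subunits of AMPA-type glutamate receptors. In the bulb, sodium and calcium channels support the release of transmitter from the dendrites of mitral, tufted and granule cells as well as axonal firing.

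The libraries held 14571453 to 15590938 counts, and the upper limit for a gene with a count of 0, taken as 3 counts, was 0.192 to 0.206 CPM (counts scaled to a common library total). These limits cover counting error only. The remaining library, labelled left 1038, differed from all others and is described last. In it Cdhr1 and Dlx1, markers of bulb projection neurons and interneurons, stood at 0.755 and 0.618 CPM, against 663 to 829.5 CPM and 304 to 358 CPM in the other 5 libraries. Cbln3, a gene of cerebellar granule cells, stood at 1217 CPM in it and at 0.478 to 1.10 CPM in the others.

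Levels were compared between genes per kilobase of the union of their annotated exons. Among the 9 sodium channel alpha subunits described, the bulb held mainly Scn2a, Scn8a, Scn1a and Scn3a. Scn2a, a channel of axon initial segments, had the highest level, with 33.7 ± 0.434% of their summed level on the left (SD, n = 2) and 33.6 ± 0.675% on the right (SD, n = 3). Scn8a, the main channel of mature nodes and initial segments, Scn1a, prominent in inhibitory interneurons, and Scn3a, prominent before and around birth, followed at 12.3, 11.7 and 11.6 CPM per kb on the left and at 13.9, 13.8 and 10.4 CPM per kb on the right. On the left these 3 held 22.2 ± 1.06%, 21.3 ± 1.21% and 21.0 ± 2.77% of that sum, within the spread of each other, and on the right 23.7 ± 0.880%, 23.5 ± 0.791% and 17.7 ± 0.757%. Scn7a, a sodium-sensing relative, and Scn9a, a channel of sensory neurons, were far lower, at 0.571 and 0.316 CPM per kb on the left and at 0.575 and 0.159 on the right. Scn4a of skeletal muscle and Scn10a and Scn11a of pain-sensing neurons had too few counts to be tested. Scn4a held 0 or 1 count in each of the 5 libraries, Scn11a 0 to 3 counts and Scn10a 3 to 18 counts.

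Of the 3 sodium channel beta subunits described, Scn3b stood at 42.1 CPM per kb on the left and 35.7 on the right, Scn2b at 23.5 and 20.9, and Scn4b, far lower, at 0.218 and 0.540. Calcium channel alpha1 subunits of the L-type were mainly Cacna1d and Cacna1c, whose order depends on the length used. Per kilobase of exon union the mean of Cacna1d lay above that of Cacna1c on both sides, though not in left 1039, while per kilobase of the longest transcript Cacna1c lay above Cacna1d, at 22.5 against 19.9 CPM per kb on the left and at 22.7 against 22.4 on the right. Cacna1s of skeletal muscle stood at 0.888 CPM per kb on the left and 1.27 on the right, and Cacna1f of photoreceptors had 2 to 9 counts and was not tested. Of the alpha1 subunits known for transmitter release and dendritic entry, Cacna1e (R-type) stood at 18.8 CPM per kb on the left and 16.2 on the right, Cacna1a (P/Q-type) at 13.5 and 15.0, and Cacna1b (N-type) at 11.3 and 8.71. Among T-type subunits, which open near the resting potential, Cacna1g led at 29.7 CPM per kb on the left and 25.6 on the right, ahead of Cacna1h and Cacna1i. Cacna2d1 made up 79.0 ± 1.78% of alpha2delta levels on the left and 77.1 ± 1.66% on the right. Cacnb3 and Cacnb4 were the main beta subunits, and Cacng7 and Cacng5 the main gamma subunits. Cacng1, a subunit of the muscle calcium channel, had 2 and 4 counts in the left bulbs and 0 in each right bulb, and was not tested.

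**Figure D1:**
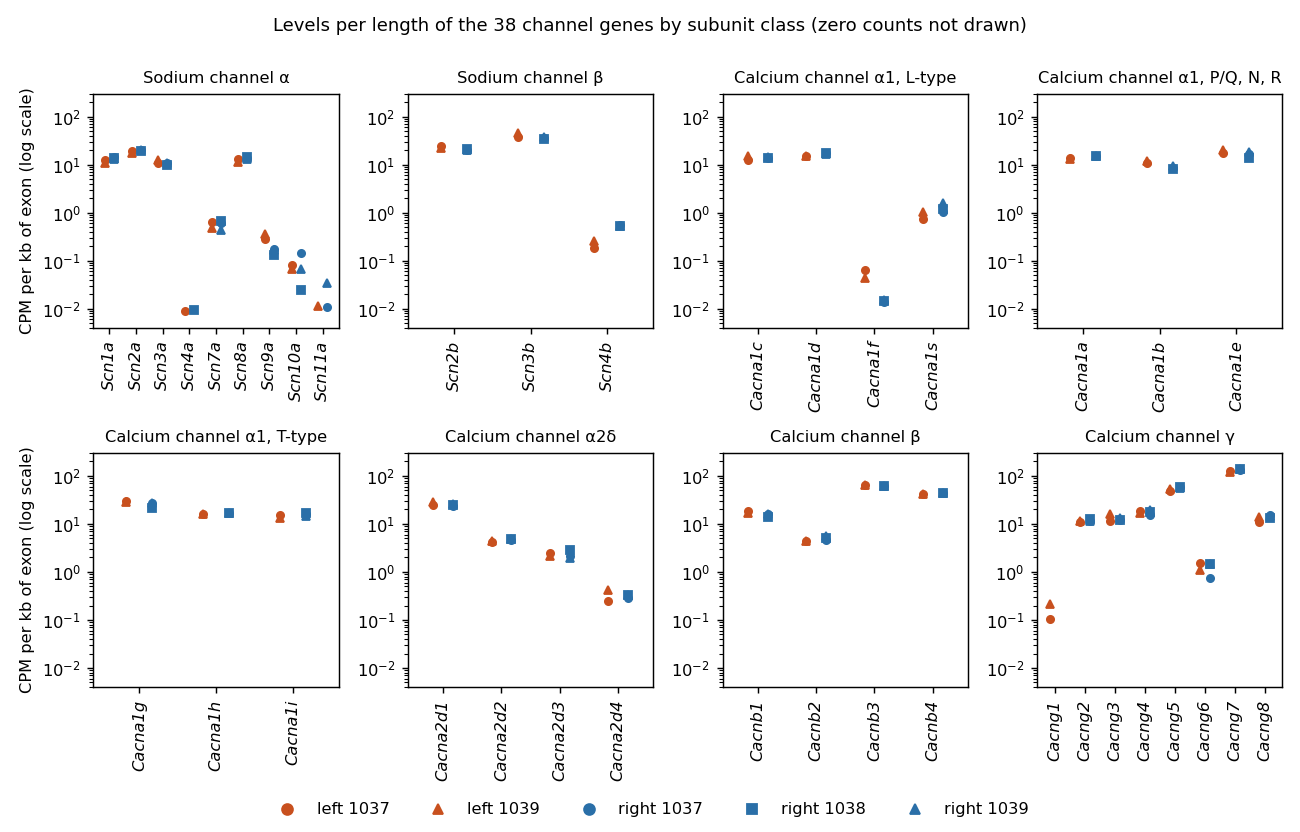
Levels of the 38 channel genes in CPM per kilobase of exon (log axis), by subunit class, with a point for each of the 2 left and 3 right bulbs. Of the genes drawn, Scn2a is highest in the sodium channel alpha panel and Cacng7 in the gamma panel on both sides, and libraries of a side lie close together except for genes near 0.

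Scn1a, Scn8a and Scn4b among sodium channel genes and Cacna1a, Cacna1d, Cacng5 and Cacng7 among calcium channel genes were lower in the left bulbs, and Cacna1b was higher. Apart from Scn4b the differences were small, between 14.8% and 19.6% lower, and 22.2% higher for Cacna1b. In all, 33 of the 38 genes had enough counts to be tested by edgeR's quasi-likelihood test, each with enough counts on both sides, and 8 of these 33 (24.2%) were called at an adjusted p under 0.05. Over all 14412 genes tested, 1387 (9.62%) were called. Of the 33 channel genes 7 (21.2%) were lower and 1 (3.03%) was higher on the left, against 6.46% lower and 3.16% higher over all genes tested. The median log2 fold change, left over right, was -0.11 over the 33 channel genes and 0.0049 over all genes tested. In bulk tissue, fewer cells of a type and less RNA per cell cannot be told apart.

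The adjusted p of the 8 calls lay between 0.0237 and 0.0475, and the count depended on the fit. Scaled by total counts alone, 3 members were called, Scn4b lower and Cacna1b and Scn9a higher, against 4.09% of all genes lower and 6.77% higher. When the mouse was added as a block, DESeq2 called 0 of the 27 members for which it gave an adjusted p (smallest adjusted p = 0.118). Over all genes DESeq2 with the block called 432. At an unadjusted p under 0.05 it had 6 members. With the block, edgeR called 8 members, of which 6 were among the 8 called without it, and 1553 of all genes. In both of these fits mouse 1038 has a right library only, so the side difference rests on mice 1037 and 1039. Without left 1037 the count of called members was 6, without left 1039 it was 1, without right 1037 and without right 1038 it was 0 each, and without right 1039 it was 4. In edgeR without right 1037 and without right 1038, 14 members each had an unadjusted p under 0.05. The smallest adjusted p of a member was 0.0509 and 0.0573. Over all genes these fits called 669 and 660, against 1387 in the 5 libraries. In the 5 libraries 17 members and 24.8% of all genes tested had an unadjusted p under 0.05. That share over all genes is not given for these leave-outs or for DESeq2 with the block.

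Scaled by total counts only, the summed CPM of the 38 genes did not separate the sides. It was 4678 and 4801 CPM in the left bulbs of mice 1037 and 1039. In the right bulbs of mice 1037, 1038 and 1039 it was 4743, 4621 and 4819.8 CPM. The TMM factors given later in this paragraph lower left values against right ones and are not in these sums. Below, left values are given for mice 1037 and 1039 and right values for mice 1037, 1038 and 1039, in that order. The CPM of the left libraries lay entirely below the right ones for 12 of the 33 tested members (36.4%) and entirely above for 8 (24.2%). Over all genes tested the sides did not overlap for 46.4%, with 13.2% below and 33.2% above. The fitted fold changes use TMM scaling, with factors of 1.03 and 1.04 on the left and 0.971 to 0.983 on the right. The median log2 fold change of all genes was 0.09 when scaled by total counts only, so equal CPM on the sides gives a slightly negative fitted value.

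**Figure D2:**
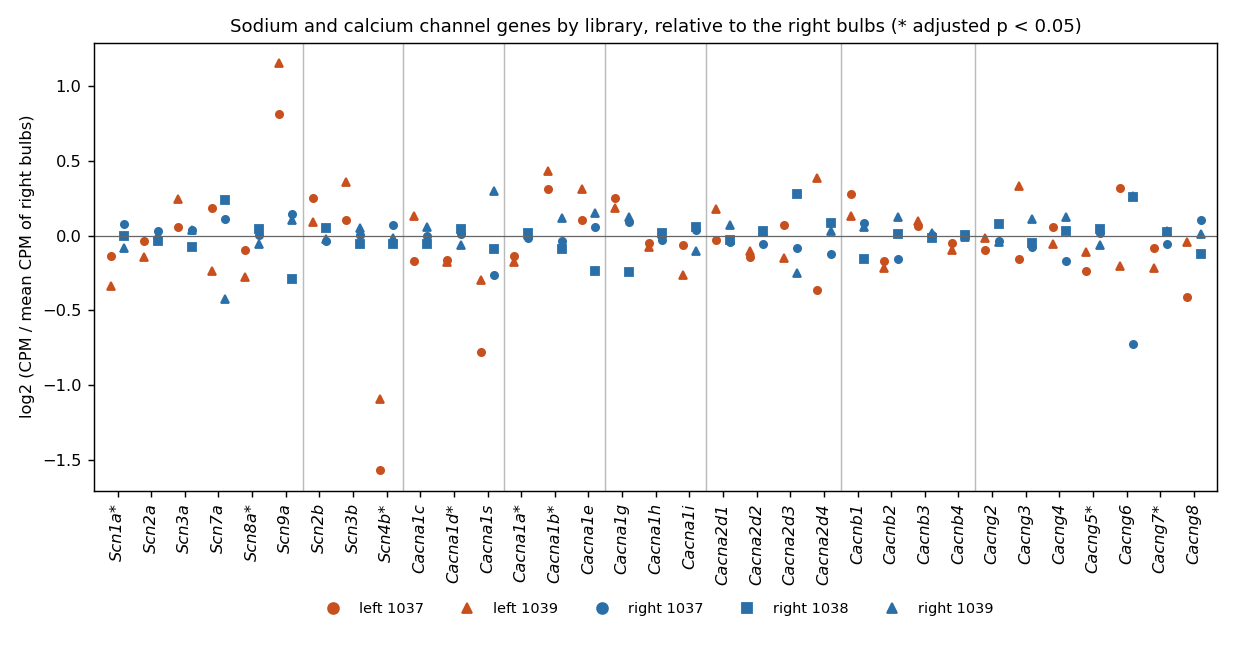
CPM of the 33 tested channel genes in each library, as log2 of the ratio to the mean of the right bulbs, with left bulbs drawn left of right bulbs and asterisks at the 8 called genes. Scn4b lies far below and Scn9a far above the right bulbs in both left bulbs, while apart from Cacna1s and Cacng6 the other genes stay within a log2 ratio of 0.5.

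Among the sodium channel alpha subunits described, 6 of 9 were tested, 2 were lower and 0 were higher (median log2 fold change -0.13). Scn1a (chr2:66270778-66440840 on GRCm38, minus strand) stood at 139.7 and 122 CPM on the left, against 162, 153 and 145 CPM on the right. Both left values lie below every right value. Its log2 fold change was -0.31 (SE 0.08, adjusted p = 0.0336). Scn8a (chr15:100869858-101045938) stood at 205 and 181 CPM on the left, against 219.9, 226 and 211 CPM on the right, and fell by 0.26 on the log2 scale (SE 0.07, adjusted p = 0.0416). Here too the sides did not overlap, with left 1039 the lowest library for both genes.

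Scn2a, the alpha subunit with the highest level, had 245 and 228 CPM on the left and 256, 245 and 252 CPM on the right, with a log2 fold change of -0.17 (SE 0.06, adjusted p = 0.116). Left 1037 lies inside the range of the right bulbs. The calls of Scn1a and Scn8a were lost when libraries were left out: Scn1a was called in 2 of the 5 leave-outs (adjusted p up to 0.194) and Scn8a in 1 (adjusted p up to 0.244). Without left 1039 the log2 fold changes of Scn1a and Scn8a were -0.21 and -0.17.

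With TMM scaling in the 5 libraries, Scn3a and Scn9a had log2 fold changes above 0 and were not called. Scn3a stood at 135 and 153 CPM in the left bulbs, against 133, 123 and 133 CPM in the right bulbs, with a log2 fold change of 0.07 (SE 0.07, adjusted p = 0.584). Scn9a had 3.56 and 4.51 CPM on the left, against 2.24, 1.66 and 2.18 CPM on the right, the largest positive fold change among the tested members (log2 fold change 0.91, SE 0.26, adjusted p = 0.0606). It was called when scaled by total counts only (adjusted p = 0.0413). Scn9a encodes the channel through which sensory neurons of the nose drive release in the bulb, while 5 of 7 sensory neuron markers were lower on the left and 0 were higher, with a summed level of 55.6 to 111 CPM on the left and 291 to 360 CPM on the right. The part of these axons in the level of Scn9a was not tested. The ratio of Scn3a to Scn1a in CPM was 0.963 and 1.26 on the left, against 0.817, 0.800 and 0.913 on the right, a pair chosen after their values were seen.

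Among the members, the alpha subunit genes Scn3a, Scn2a, Scn1a, Scn9a and Scn7a follow each other in this order on chromosome 2. The gaps between them are 53143, 503330, 39239 and 38462 bases, and other genes within these gaps were not looked for. Across this cluster the log2 fold changes were 0.07, -0.17, -0.31, 0.91 and -0.09. The 250 bases before the annotated starts of Scn1a and Scn9a are shown because these neighbours on the same strand had fold changes of opposite sign. Those of Cacna1b, the member that was higher, and of Cacng5, a member that was lower, are shown beside them. They come from the RefSeq table for GRCm38.p6 and run 5′ to 3′ on the strand of the gene: chr2:66440838-66441087 for Scn1a, chr2:66634963-66635212 for Scn9a, chr2:24763153-24763402 for Cacna1b and chr11:107915056-107915305 for Cacng5, all on the minus strand. Capitals mark matches to the GC box GGGCGG or the AP-1 motif TGANTCA on either strand. Cacng5 has another window, at chr11:107911363-107911612, which matches neither motif and is not shown. No window of another member holds the AP-1 motif, so Cacng5 does not stand for the lower members.
Scn1a: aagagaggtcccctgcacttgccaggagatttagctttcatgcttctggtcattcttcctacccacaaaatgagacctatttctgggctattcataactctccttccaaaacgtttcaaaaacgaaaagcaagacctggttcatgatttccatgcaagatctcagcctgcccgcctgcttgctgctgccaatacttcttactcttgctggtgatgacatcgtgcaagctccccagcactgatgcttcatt
Scn9a: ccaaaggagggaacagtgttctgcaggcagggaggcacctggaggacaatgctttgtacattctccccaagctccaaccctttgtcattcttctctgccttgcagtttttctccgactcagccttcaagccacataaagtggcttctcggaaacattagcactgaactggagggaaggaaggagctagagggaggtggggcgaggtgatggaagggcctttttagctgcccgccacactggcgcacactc
Cacna1b: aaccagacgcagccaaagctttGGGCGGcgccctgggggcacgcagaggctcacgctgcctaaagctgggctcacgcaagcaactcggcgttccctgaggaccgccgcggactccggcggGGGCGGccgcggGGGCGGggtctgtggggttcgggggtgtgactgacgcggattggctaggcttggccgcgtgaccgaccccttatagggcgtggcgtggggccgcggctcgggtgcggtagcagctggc
Cacng5: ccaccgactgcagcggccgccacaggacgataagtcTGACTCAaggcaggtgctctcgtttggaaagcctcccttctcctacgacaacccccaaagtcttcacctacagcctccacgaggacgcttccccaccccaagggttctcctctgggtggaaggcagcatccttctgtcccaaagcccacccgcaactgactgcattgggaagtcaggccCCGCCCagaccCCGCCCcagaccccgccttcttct

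Of the 38 members, 30 had windows in that table, 41 windows in all. Their median GC content was 56.8%, against 52.4% over all 32851 windows. The GC box was found in 36.6% of the members' windows and 32.7% of all windows, and TATAAA in 4.88% and 12.4%. The cyclic AMP response element TGACGTCA was found in 0 of 41 windows and in 1.55% of all, the E-box CACGTG in 0 and in 6.02%, TGANTCA in 1 and in 6.75%, and the Egr motif GCGTGGGCG in 1 and in 0.536%. The Egr match, in the window of Scn7a, overlaps a GC box. These counts describe the letters of the windows only.

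The 3 sodium channel beta subunits described were all tested, and 1 was lower and 0 higher on the left. Scn4b, the subunit linked to resurgent sodium current in fast-firing neurons such as Purkinje cells, had the largest fold change of the tested members at a low level. It stood at 0.907 and 1.26 CPM on the left, against 2.82, 2.58 and 2.66 CPM on the right, which is 14 and 19 counts against 44, 39 and 39 counts. The log2 fold change was -1.39 (SE 0.31, adjusted p = 0.0237), a level 61.8% lower, and the call was lost in each of the 5 leave-outs (adjusted p from 0.0535 to 0.133). Scn2b, which lies 8324 bases from Scn4b on chromosome 9, stood at 116 and 104 CPM on the left, against 94.9, 101 and 95.8 CPM on the right (log2 fold change 0.09, SE 0.07, adjusted p = 0.448). Scn3b had 209.7 and 249.9 CPM on the left and 196, 187 and 202 CPM on the right, with a log2 fold change of 0.15 (SE 0.08, adjusted p = 0.248). It passed the test without left 1037 (0.28, adjusted p = 0.0416). In CPM scaled by total counts only, the left bulbs lay above every right bulb for both Scn2b and Scn3b. The same held for 33.2% of all genes tested.

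Among L-type alpha1 subunits, which couple activity to transcription, 3 of 4 were tested and 1 was lower. Cacna1d (chr14:30039939-30491455, minus strand) had 194 and 191 CPM in the left bulbs, against 218, 223 and 207 CPM in the right bulbs. The left bulbs were close to each other and below each right bulb. It fell by 0.25 on the log2 scale (SE 0.06, adjusted p = 0.0267), and was called in 1 of 5 leave-outs (adjusted p up to 0.109). Its exons share 589 bases with those of Chdh on the other strand, which stood at 11 and 9.69 CPM on the left and at 4.44 to 5.67 CPM on the right. Cacna1c had 265 and 327 CPM on the left, against 297, 287 and 311 CPM on the right, with overlapping sides (log2 fold change -0.09, SE 0.08, adjusted p = 0.551). Cacna1s had 4.86 and 6.77 CPM on the left and 6.93, 7.82 and 10.2 CPM on the right (-0.60, SE 0.22, adjusted p = 0.124), and passed with the mouse as a block in edgeR (adjusted p = 0.0405). The 4 skeletal muscle markers summed to 3.05 and 3.52 CPM on the left and to 2.76, 4.37 and 3.69 CPM on the right, nearly all of it Acta1, and their part in the level of Cacna1s was not tested.

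Of the 3 P/Q-, N- and R-type genes 1 was lower and 1 was higher. Cacna1a (chr8:84388440-84640246), the P/Q-type pore, stood at 156 and 152 CPM on the left, against 169.6, 174 and 172 CPM on the right, and fell by 0.24 on the log2 scale (SE 0.05, adjusted p = 0.0237). Cacna1b (chr2:24603887-24763152, minus strand), the N-type pore, stood at 107 and 117 CPM on the left, against 84.3, 81.5 and 93.9 CPM on the right, and rose by 0.29 (SE 0.07, adjusted p = 0.0356). For neither gene did the sides overlap. The ratio of Cacna1b to Cacna1a in CPM was 0.688 and 0.768 on the left, against 0.497, 0.470 and 0.546 on the right, also a pair chosen after their values were seen. Cacna1a was called in 0 of the 5 leave-outs (adjusted p from 0.0542 to 0.125) and Cacna1b in 2 (adjusted p up to 0.156), with the same sign in each. Cacna1e, the R-type pore and the highest of the 3 per length, had 440.2 and 509 CPM on the left and 427, 347 and 454 CPM on the right (0.13, SE 0.11, adjusted p = 0.496).

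None of the 3 T-type genes passed the edgeR test of the 5 libraries without the block. Cacna1g had 308 and 294 CPM on the left, against 276, 219 and 283 CPM on the right (log2 fold change 0.13, SE 0.10, adjusted p = 0.454). Cacna1h, at 159.5 and 157 CPM on the left and 162, 167 and 167 CPM on the right, had -0.15 (SE 0.05, adjusted p = 0.129). Cacna1i, at 151 and 131 CPM on the left and 162, 164 and 147 CPM on the right, had -0.24 (SE 0.08, adjusted p = 0.0883), and passed without left 1037 (-0.34, adjusted p = 0.0357) and with the mouse as a block in edgeR (-0.21, adjusted p = 0.0480).

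The alpha2delta and calcium channel beta subunits held no gene called in that test among 4 tested members each. Cacna2d1, the main alpha2delta subunit, stood at 303 and 350.3 CPM on the left, against 299.9, 304 and 324 CPM on the right, with a log2 fold change of -0.0026 (SE 0.07, adjusted p = 0.987). Cacna2d2, Cacna2d3 and Cacna2d4 had -0.20, -0.11 and -0.03. Cacnb3 stood at 255 and 262 CPM on the left, against 245, 241 and 247 CPM on the right (-0.0010, SE 0.05, adjusted p = 0.994). Cacnb2 and Cacnb4 had -0.28 and -0.15 (adjusted p = 0.0744 and 0.114), and Cacnb1 had 0.12 (adjusted p = 0.431).

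Of the 8 gamma subunits, 7 were tested and 2 were lower, both of the kind that binds AMPA receptors. Cacng7 (chr7:3332955-3368221), the member with the highest level per length, had 315 and 287 CPM in the left bulbs, against 321, 339 and 342 CPM in the right bulbs, and fell by 0.23 on the log2 scale (SE 0.06, adjusted p = 0.0475). Left 1037 lies close to right 1037, and the call held in 1 of 5 leave-outs (adjusted p up to 0.247). Cacng5 (chr11:107874605-107915055, minus strand) had 187 and 204 CPM on the left, against 223, 226 and 209.8 CPM on the right, and fell by 0.25 (SE 0.06, adjusted p = 0.0381), a call that held in 2 of 5 leave-outs (adjusted p up to 0.187). Neither passed with the mouse as a block in edgeR (adjusted p = 0.0656 and 0.0530). Their neighbours did not pass the test, and the difference between neighbours was not tested. Cacng8 and Cacng6, beside Cacng7 on chromosome 7, had -0.30 and 0.0064 (adjusted p = 0.159 and 0.994), and Cacng4, beside Cacng5 on chromosome 11, had -0.08 (adjusted p = 0.639). Cacng2 and Cacng3 had -0.14 and 0.03 (adjusted p = 0.271 and 0.927).

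**Figure D3:**
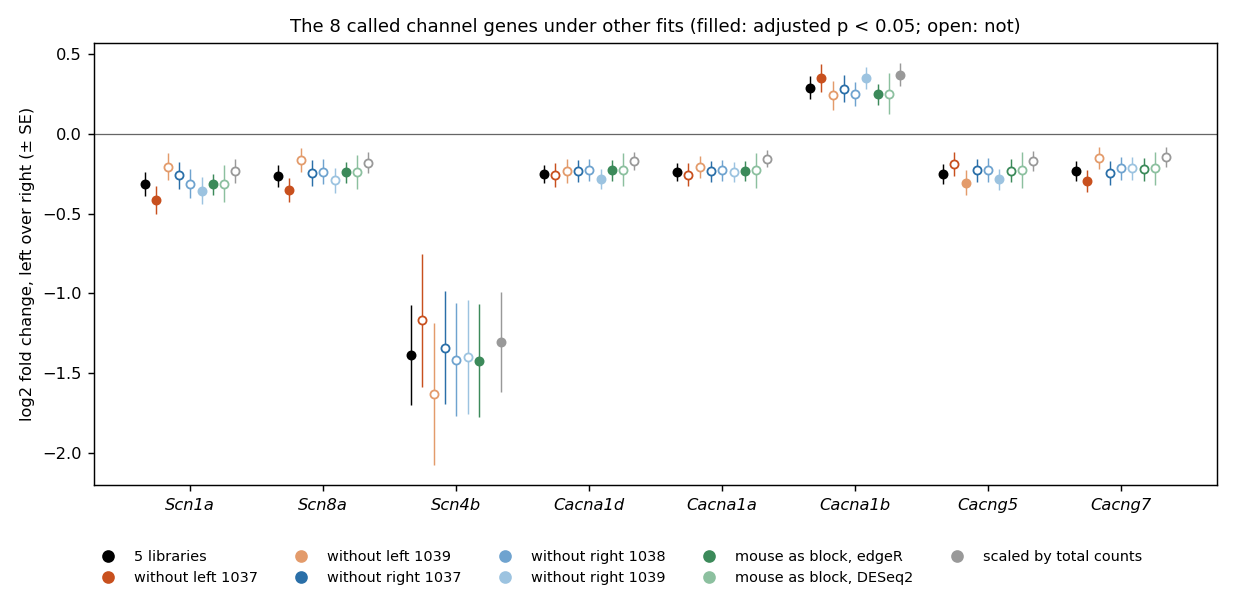
Log2 fold changes, left over right, of the 8 called genes with their SE under the fit of 5 libraries, 5 leave-outs, the mouse as a block and scaling by total counts, with filled points at an adjusted p under 0.05. A point is missing where DESeq2 gave no adjusted p. The signs stay the same in these fits, Scn4b and Cacna1a have open points in all 5 leave-outs, and DESeq2 with the block has no filled point.

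Proteins that bind or place the channels were also examined, as a list of 42 genes of which 41 were in the table and 40 were tested. In the left bulbs 12 were lower and 1 was higher (32.5% called, against 9.62% of all genes tested), with a median log2 fold change of -0.13. The list was made with earlier results of these data known, so its share called is a description and not an independent result. Stac2, an adaptor of L-type channels, had 82.2 and 94.7 CPM on the left, against 133, 154 and 154 CPM on the right, and fell by 0.81 on the log2 scale (SE 0.08, adjusted p = 9.25e-04). Its relative Stac fell by 1.05 (adjusted p = 0.0109), at 3.89 and 3.19 CPM on the left and 6.22, 7.55 and 7.03 CPM on the right. At the active zone, Rimbp2, which ties calcium channels to release sites, fell by 0.43 (SE 0.06, adjusted p = 0.00221), with 128 and 129 CPM on the left and 160.5, 160.7 and 169.97 CPM on the right. Rims2 and Bsn fell by 0.31 and 0.35 (adjusted p = 0.0167 and 0.0175). The other 3 of the 6 active zone genes, Rims1, Erc1 and Erc2, had 0.14, -0.03 and -0.12 and were not called.

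At the axon initial segment, where sodium channels are held, Ank3, the anchoring ankyrin, fell by 0.32 (SE 0.06, adjusted p = 0.0146), with 486 and 504 CPM on the left and 617, 568 and 565 CPM on the right. The adhesion molecule Nrcam and the matrix protein Tnr fell by 0.32 and 0.36, and Cntn2, an adhesion molecule of the region beside nodes, rose by 0.38 (SE 0.07, adjusted p = 0.0108), with 157 and 149.6 CPM on the left and 106, 107 and 122 CPM on the right. Of the 8 anchors of the initial segment and node, 4 were lower and 1 was higher, and Ank2, Sptbn4 and Cntn1, with -0.05, -0.15 and -0.23, were not called. Fgf12, an intracellular modulator of sodium channels, fell by 0.38 as 1 of 4 in its family, Camk2b, a kinase subunit, by 0.41 as 1 of 6 kinase genes and Calm3 by 0.25 as 1 of 4 of the calmodulin family. Of the small GTPases that inhibit calcium channels, Rem2, Rrad and Gem had -0.35, 0.28 and -0.15 (adjusted p from 0.376 to 0.758). The sodium leak channel genes Nalcn, Unc79, Unc80 and Nalf1 had -0.0037, -0.09, -0.03 and -0.10, with adjusted p from 0.390 to 0.980. With 6 calls without right 1037 and 8 without right 1038 the count of this list was also lower, and in DESeq2 it was 7 once the mouse entered as a block.

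Markers of several cell types differed between the sides beside these values. Of 8 markers of GABAergic interneurons 3 were lower (Gad1, Gad2 and Slc32a1) and 0 higher, with a summed level of 2897 to 3331 CPM on the left and 3817 to 4140.04 CPM on the right. Most of that gap came from Gad1, while Dlx1, Dlx2, Dlx5, Dlx6 and Meis2 had -0.06, 0.02, -0.03, 0.10 and -0.17 and were not called, and the list's median log2 fold change was -0.11. Of 6 pan-neuronal genes 2 were lower and 1 higher, at 4056 to 4084 CPM on the left and 4378 to 4597 CPM on the right, a sum carried by Snap25 and Syt1, which were the lower ones. Stmn2 was higher (log2 fold change 0.42), and the list's median log2 fold change was 0.0061. Of 5 genes of dopaminergic periglomerular neurons 2 were lower and 0 higher, and of 6 mitral and tufted cell genes 1 was lower and 1 higher. Of 6 astrocyte markers 2 were higher (Gfap and Aqp4), with a summed level of 3009 to 3040 CPM on the left and 2438 to 2669 CPM on the right. Most of that gap came from Gfap, with means of 561 CPM on the left and 255 CPM on the right. Aldh1l1, Slc1a2, Slc1a3 and Gja1 had -0.23, -0.09, -0.02 and 0.14 and were not called, and the list's median log2 fold change was 0.06. Of 6 microglia markers 1 was higher, with a summed level of 219.7 to 228 CPM on the left and 172 to 179.9 CPM on the right. Of 6 oligodendrocyte markers 0 were called, of 3 precursor markers 1 was lower, of 6 markers of ensheathing glia 1 was lower, and of 7 endothelial and mural markers 0 were called. Of the granule cell list of the cerebellum, Neurod1 and Zic1 were higher on the left, while Cbln3, Gabra6 and Fat2 stood at 0.128 to 1.26 CPM in the 5 libraries. The part of these cell types in the values of the channel genes was not tested.

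The library labelled left 1038 held a different set of channel genes. Relative to the median of the 2 left and 3 right bulbs, 6 of the 33 tested members (18.2%) were higher by over 2-fold and 16 (48.5%) were lower by over 2-fold, against 8.26% and 18.8% of all genes tested. This is a description of a single library, with no test. The genes tested had enough counts in the 2 left and 3 right bulbs, so these shares leave out genes high only in this library. Examples are Gabra6 and Pcp2, at 896 and 201 CPM in it. Cacna1a stood at 686 CPM in it and at 152 to 174 CPM in the others. Scn8a stood at 510.5 CPM there, while the bulbs held 181 to 226 CPM. Scn2b had 349.9 CPM, against 94.9 to 116 CPM in the bulbs. For Scn4b the library held 30.1 CPM, 11.6 times the median of the others, and for Cacna2d2 168 CPM, 4.64 times that median.

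In the other direction, Scn3b and Scn3a stood at 3.71 and 3.50 CPM in the library labelled left 1038, 54.5-fold and 37.9-fold below the median of the others. Cacna1h had 3.98 CPM, against 157 to 167 CPM in the bulbs, and Cacng8 at 3.02 CPM, against 25.1 to 35.9 CPM. Cacna1b, Cacna1i and Cacnb4 differed little from that median, at ratios of 1.04, 0.865 and 1.24. Cacna1a made up 77.5% of the P/Q, N and R class in this library, against 29.4 to 40.9% in the others. The 5 listed genes of cerebellar granule cells summed to 4858 CPM in it and the 4 of Purkinje cells to 2111 CPM, against 160.3 to 239 CPM and 27.4 to 37.5 CPM in the other libraries, while the interneuron genes Dlx2 and Dlx6 had a count of 0.

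**Figure D4:**
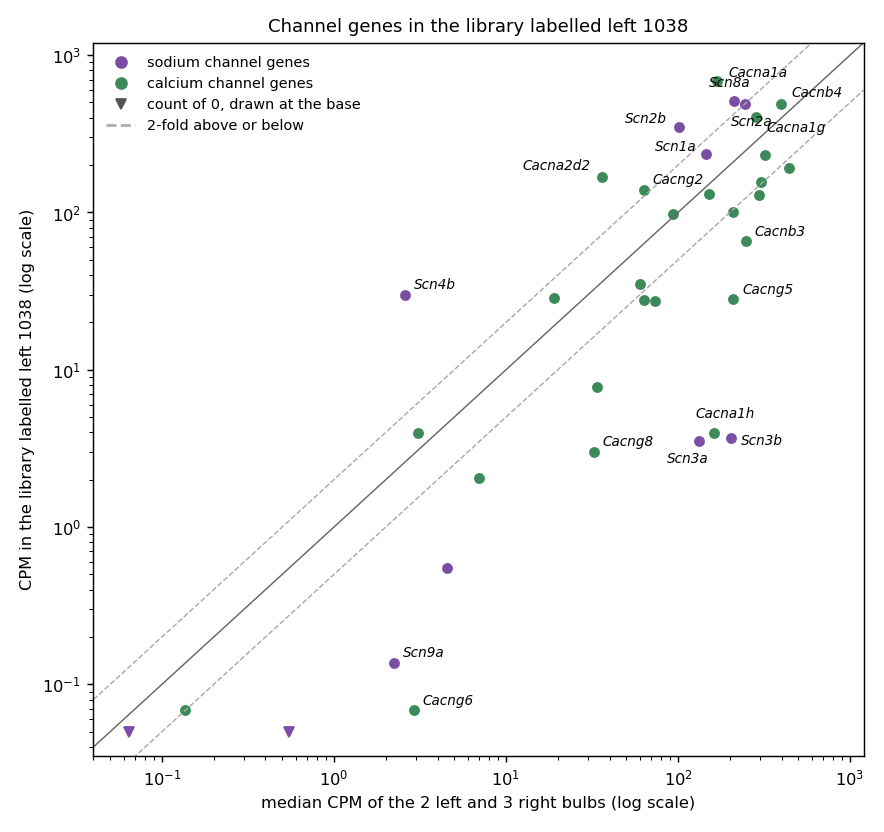
CPM of the channel genes in the library labelled left 1038 against the median of the 2 left and 3 right bulbs, on log axes, with lines at equality and at 2-fold. Scn4b, Cacna1a and Cacna2d2 lie far above the line, and Scn3a, Scn3b and Cacna1h far below it. A count of 0 is drawn at the base.

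With this library included, as 3 left against 3 right, edgeR called 0 of 33 members (3 at an unadjusted p under 0.05, smallest adjusted p = 0.554) and 0 of 14209 genes (0%, with 1196 at an unadjusted p under 0.05). The log2 fold changes of Cacna1a, Scn8a and Scn4b were then 0.93, 0.42 and 1.996, the opposite sign of that in 5 libraries, while Cacna1b had 0.26 and Cacna1d -0.48.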

How the data were processed

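The deposited table gives read counts per gene and library as whole numbers, with no normalization, per the file headers, with an RPKM value and a length. Recomputed from the counts, the deposited RPKM differed by at most 3.6e-11, and the deposited length lay within 1 base of the gene's genomic span for 78.41% of genes found in GENCODE M21, so RPKM was not used. The submitters' processing notes name the tools TopHat2, HTSeq 0.6.1p2, cutadapt 1.2.1 and DESeq 1.18.0 and the build GRCm38, without their roles. Strand use in counting is not stated there, so overlapping genes cannot be told apart in the counts. Of 22095 genes 21852 were matched to a symbol, 0 columns belonged to no sample, and 0 pairs of libraries were identical.

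Genes were tested with edgeR 4.0.16 in R 4.3.3 (glmQLFit and glmQLFTest, TMM, filterByExpr, side as the term, Benjamini-Hochberg over all genes, two-sided), in 5 libraries, with calls at an adjusted p under 0.05. The SE is the log2 fold change divided by the square root of F. The test was also run on simulated counts without a mouse effect, with set differences larger than those of the called members apart from Scn4b. Its outcome is not given here, so that run lends no support to these calls. Of the genes that match the symbol rule, 2 are not reported here, and counts, sums and shares over channel genes leave them out, while the fit and its adjusted p-values cover all genes. The members, the partner and marker lists and the choice of libraries were made with earlier results of these data known. Per the labels, each number stands for an animal, which pairs its left and right libraries. The correlation of deviations from the side means was 0.277 over mice 1037 and 1039 together. Alternatives were the mouse as a block, all 6 libraries, DESeq2 1.42.0, limma-voom 3.58.1, RLE or total-count scaling, 2 other filters and leaving out each library. Values in every library are given for the called members, for the member highest per kilobase in each class and for those called under an alternative, and for some of the up to 12 called partners taken by p. Values of Scn3a, Scn2b, Cacna1c and Cacna1h were added after they were seen.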

Additional observations from a re-analysis of the deposited data

Results flagged for a closer look

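In the library labelled left 1038, which entered no test of the 5 libraries, 6 channel genes lay over 2-fold above each of the other libraries. They were Cacna1a at 686 CPM, Scn8a at 510.5 CPM, Scn2b at 349.9 CPM, Cacna2d2 at 168 CPM, Cacng2 at 139.3 CPM and Scn4b at 30.1 CPM. Against the median of the other libraries, 16 of the 33 tested members lay over 2-fold below. Over all genes tested, 8.26% lay over 2-fold above that median and 18.8% over 2-fold below it. The share of all genes over 2-fold above each of the other libraries was not counted.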

How the results depend on the processing

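Of the 8 called channel genes, 8 were also called by DESeq2 without a block and 7 with RLE size factors, with no filter and with a filter of 1 CPM in 2 libraries. Cacng7 was called in 3 of the 15 alternatives, leave-outs included, and the other called members in 6 to 9. The count of called members was 3 with total-count scaling and 0 with all 6 libraries, 0 with all 6 libraries and the replicate block (1 at an unadjusted p under 0.05) and 0 with the block in DESeq2, and 0 to 6 in the leave-outs. Over all genes it was 0 in both fits of 6 libraries (671 at an unadjusted p under 0.05 with the block), 432 with the block in DESeq2 and 660 to 1096 in the leave-outs, and for the partners 0 in both fits of 6 libraries, 7 and 6 to 11. With the block in edgeR 8 members and 1553 genes were called.

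Signs turned mainly with the library labelled left 1038. With all 6 libraries Scn1a, Scn2a, Scn8a, Scn3b, Scn4b, Cacna1a, Cacna1e, Stac and Bsn had 0.072, 0.32, 0.42, -0.41, 1.996, 0.93, -0.17, 0.11 and 0.10. With the block in 6 libraries Scn2a, Scn8a, Scn9a, Scn3b, Scn4b, Cacna1a, Cacna1e and Bsn had 0.21, 0.23, -0.17, -1.27, 0.12, 0.48, -0.26 and 0.0095. Cacna2d1 and Cacnb3 lay near 0 and crossed it: 0.0010 and 0.0027 with DESeq2 and with RLE, 0.079 and 0.081 with total-count scaling, 0.0050 and 0.0069 with no filter, 0.0050 and 0.0068 with the 1 CPM filter, 0.099 and 0.018 without left 1037, 0.030 and 0.0042 without right 1039, and for Cacnb3 0.012 without right 1037. Over the leave-outs Cacna2d1 ranged from -0.099 to 0.099 and Cacnb3 from -0.0076 to 0.018. The cause was not tested.

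With 2 left and 3 right libraries, leaving out a left library leaves a lone one, assumed to vary like the right group. Depth limits Scn4b, at 14 to 44 counts in the 5 libraries, and Scn9a, at 25 to 68 counts.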
